A study of Mus musculus with 6 samples.

Results

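The endoplasmic reticulum (ER) folding and stress genes described here are 40 genes named as a list by symbol, of 23235 gene symbols in the deposited gene tables. They comprise 10 chaperones and co-chaperones, 6 disulphide enzymes, 8 genes of ER-associated degradation, 5 stress sensors, 4 stress-induced factors and 7 subunits of the translocation machinery. All 40 had a single row in each library and passed the filter on low values. Together they held 0.590% to 0.638% of the summed FPKM of a library, where FPKM counts fragments per kilobase of transcript, corrected for depth.

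Proteins bound for secretion or for membranes enter the ER through the Sec61 channel, are folded there by chaperones and disulphide enzymes, and are returned to the cytosol for degradation when folding fails. When unfolded protein accumulates, the sensors encoded by Ern1 (IRE1alpha), Eif2ak3 (PERK) and Atf6 start the unfolded protein response, which raises chaperone transcription through XBP1 and ATF6 and, through ATF4, the stress-induced factors. In the duodenum goblet cells, Paneth cells, Brunner glands and plasma cells secrete heavily. Acinar cells of the adjoining pancreas are professional secretory cells too.

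RNA from the first 2 cm of intestine below the stomach was sequenced in 3 control and 3 TNint mutant mice of a mixed background, all 6 weeks old, with 1 library per mouse. All 6 carried a floxed Nkx2.2 allele. Controls 1 and 2 were Nkx2.2flox/+ with a Rosa26Tomato reporter allele, and control 3 was Nkx2.2flox/+ without the reporter. The 3 mutants were Nkx2.2flox/TN with Villin-Cre, which drives recombination in intestinal epithelium, and with the reporter. Controls carried no Cre, so Cre, the TN allele and recombination in the epithelium cannot be told apart between the groups. Nkx2-2 itself was at 1.00, 1.03 and 1.27 FPKM in controls 1, 2 and 3 and at 0.748, 0.744 and 0.666 FPKM in mutants 1, 2 and 3. Depth implied by the deposited intervals was 14.2 to 25.9 M (megareads) per library, and 31 of the 40 genes had at least 500 implied reads in every library. The tissue is the whole wall, so fewer cells of a type and less RNA per cell cannot be told apart.

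The libraries differed strongly in pancreatic transcripts. Ctrb1, the acinar protease precursor chymotrypsinogen B, was at 4.61, 87.3 and 2171 FPKM in controls 1, 2 and 3 and at 727, 648 and 3027 FPKM in mutants 1, 2 and 3, a 656-fold range. The summed acinar list of 21 genes ran from 279 to 16079 FPKM in controls and from 4189 to 17407 FPKM in mutants, with Ctrc and Ptf1a at 0 in some libraries. Xist, the transcript of the inactive X chromosome in females, was at 34.0 FPKM in control 3 and 23.2 FPKM in mutant 3 and below 0.1 FPKM in the other 4. The labels give no sex. The pair with the most Ctrb1 was thus the pair with Xist, so sex and acinar content were partly confounded. Among the 4 libraries without Xist, Ctrb1 still ran from 4.61 to 727 FPKM.

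Promoters of the genes are shown first, because the ER stress response element links many ER chaperone genes to ATF6 and XBP1. Of the 40 genes, 33 matched an entry of the RefSeq promoter table (GRCm38.p6, 250 bases before to 50 after the start). The element was searched on both strands as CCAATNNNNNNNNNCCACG and was present in 9 of the 33 genes, 27.3%, against 0.119% of all 32851 promoters of that length. Its relative ERSE-II, searched as ATTGGNCCACG, was present in Herpud1 and Dnajb11, 6.06% of the 33, against 0.0365% of all promoters. The unfolded protein response element TGACGTGG was present in none of the 33 and in 0.676% of all promoters. The ATF4-type site TTGCATCA was present in 1 of the 33, Herpud1, or 3.03%, against 0.895%. The shares of members are by gene (33 genes with 34 promoters), while those of all promoters are by promoter. As the ER stress response element is known from ER chaperone genes, its share among members was not a test. A match is a description of letters and not a measured binding site. Each sequence below runs 5′ to 3′ on the gene's strand, with the 2 blocks of the element in capitals. These read CCAAT and CCACG in the first element, or CGTGG and ATTGG where it lies on the other strand, and ATTGG and CCACG in ERSE-II.
Hspa5 (chr2:34772005-34772063, plus strand): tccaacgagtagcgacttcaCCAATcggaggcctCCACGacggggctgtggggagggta
Hsp90b1 (chr10:86705513-86705676, minus strand): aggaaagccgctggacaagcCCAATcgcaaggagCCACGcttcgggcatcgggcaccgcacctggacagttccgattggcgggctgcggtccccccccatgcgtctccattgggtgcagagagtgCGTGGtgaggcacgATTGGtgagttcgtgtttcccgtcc
Canx (chr11:50325780-50325838, minus strand): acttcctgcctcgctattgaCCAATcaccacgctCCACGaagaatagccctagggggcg
Dnajc3 (chr14:118937807-118937865, plus strand): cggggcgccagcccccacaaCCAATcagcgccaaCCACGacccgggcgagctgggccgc
Creld2 (chr15:88819500-88819558, plus strand): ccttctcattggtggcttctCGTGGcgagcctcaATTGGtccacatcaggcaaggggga
Pdia6 (chr12:17266471-17266529, plus strand): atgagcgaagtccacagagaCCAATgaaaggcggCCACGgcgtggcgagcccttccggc
Ero1lb (chr13:12565662-12565720, plus strand): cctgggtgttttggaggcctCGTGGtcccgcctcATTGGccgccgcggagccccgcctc
Derl3 (chr10:75893222-75893280, plus strand): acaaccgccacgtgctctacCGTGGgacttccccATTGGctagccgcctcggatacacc
Syvn1 (chr19:6046512-6046570, plus strand): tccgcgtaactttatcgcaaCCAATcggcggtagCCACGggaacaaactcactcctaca
Herpud1, ERSE-II (chr8:94386357-94386407, plus strand): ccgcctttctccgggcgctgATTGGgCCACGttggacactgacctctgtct
Among these, the promoter of Hsp90b1 held 2 matches, 1 on each strand. The 11 genes with either element comprised 5 chaperones from the list above together with Dnajb11, 2 disulphide enzymes and 3 degradation genes, and no sensor, stress-induced factor or translocation subunit with a promoter entry held one.

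Comparing TNint mutants with controls, no member passed an adjusted p of 0.05 (limma on log2(FPKM + 0.1), Benjamini-Hochberg over 15864 rows), and 0% of all rows did. At an unadjusted p under 0.05, 2 of the 40 passed, Sec61g and Ern2, both lower in mutants, against 5.81% of all rows (237 higher and 685 lower). With trimmed mean scaling the rows at that level were 437 higher and 466 lower, with quantile normalization 360 and 431, and with acinar genes removed before rescaling 122 and 645. With the replicate number as a block, 5 members were below an unadjusted p of 0.05 (3 higher and 2 lower), against 7.89% of all rows, and none passed the adjusted threshold. In the authors' deposited table no member passed an adjusted p of 0.05, and 7 of 18541 genes did. The same 2 genes had an unadjusted p under 0.05 in the authors' deposited table, Sec61g with a log2 fold change of -0.63 and Ern2 with -0.38.

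The members' log2 fold changes were small. They ran from -0.44 to 0.26 with a median of 0.05, beside a median of -0.05 over all rows, and 29 of 40 were positive, beside 38.7% of all rows. The median absolute change was 0.105 among members and 0.119 over all rows. Mutants lay above controls with no overlap for Dnajb11, Derl1 and Ssr4, 3 of 40, where 3.13% of all rows did so. Mutants lay below controls with no overlap for Ern2 and Sec61g, 2 of 40, where 9.92% of all rows did so. The count of positive members depended on scaling, with 31 under trimmed mean scaling (47.9% of all rows), 25 under quantile normalization (46.8% of all rows) and 22 after rescaling without the acinar list (28.8% of all rows). With Ctrb1 as a covariate it was 20 of 40, beside 47.3% of all rows. It also depended on single libraries. Without mutant 3 the members' median was 0.0051 with 21 of 40 positive (42.3% of all rows), and without mutant 2 it was 0.11 with 31 positive (38.4%). Without control 1 the median was 0.029 with 27 positive (43.2%), and without control 3 it was 0.082 with 26 positive (34.8%).

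**Figure D1:**
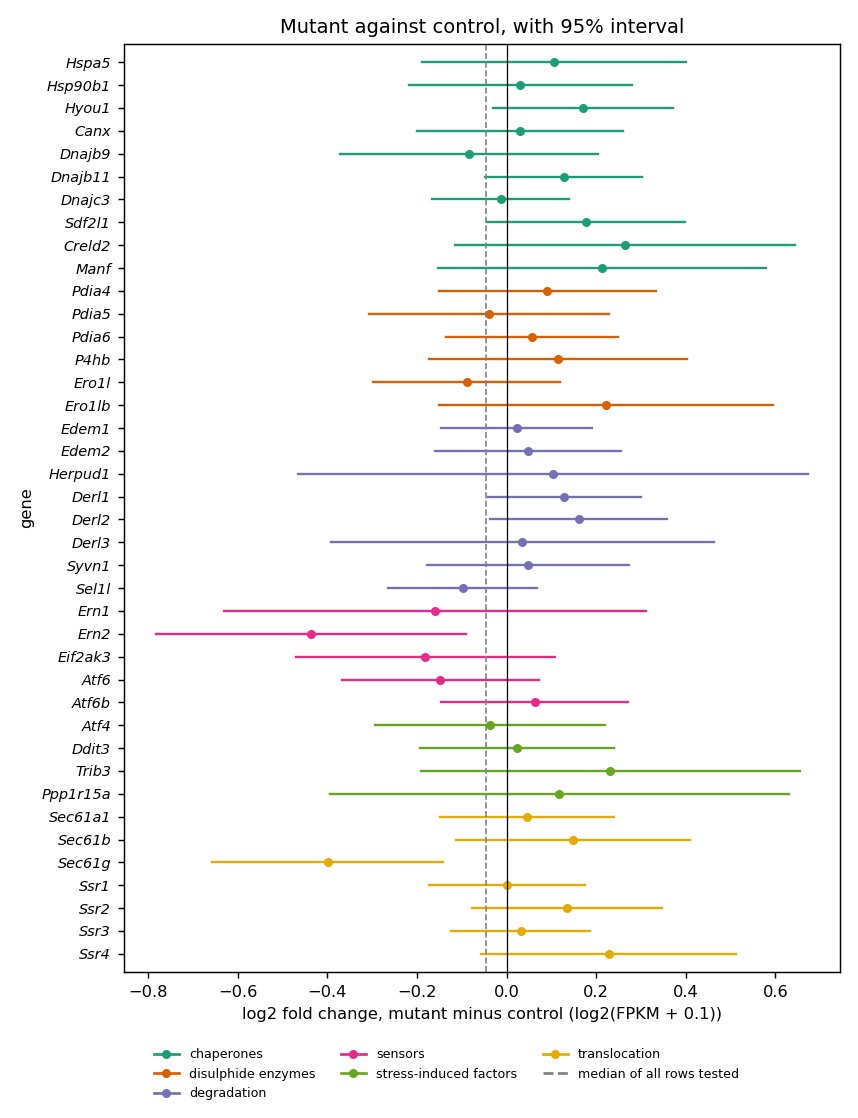
Log2 fold change, mutant minus control, on the log2(FPKM + 0.1) scale for each of the 40 genes, grouped by class, with 95% intervals from limma (3 controls and 3 mutants). The intervals of Sec61g and Ern2 lie below 0, and the other 38 include 0.

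Among chaperones, Hspa5 encodes BiP, the Hsp70 of the ER lumen that also holds the stress sensors inactive. It lies at chr2:34627610-34632049 in mm9 and was at 365, 372 and 430 FPKM in controls 1, 2 and 3 and at 435, 360 and 463 FPKM in mutants 1, 2 and 3. Control 3 and mutants 1 and 3 were high, and mutant 2 was the lowest of all 6. Its log2 fold change was 0.11 with a 95% interval from -0.19 to 0.40. Hsp90b1, the ER Hsp90 known as GRP94, was at 412, 412 and 414 FPKM in controls, against 453, 367 and 450 FPKM in mutants. The controls lay within 3 FPKM of each other while the mutants lay on both sides of them. The log2 fold change was 0.03 (SE 0.10).

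Hyou1 encodes a large Hsp70-related exchange factor for BiP. Its FPKM was 45.6, 44.6 and 47.5 in controls and 53.3, 46.5 and 55.7 in mutants, so that only mutant 2 overlapped the controls. Its log2 fold change of 0.17 (SE 0.08, unadjusted p = 0.0841, limma adjusted p = 0.786) was the smallest p among chaperones. Sdf2l1, an ER protein found in complexes with chaperones, was at 56.1, 56.6 and 55.8 FPKM in controls, against 68.6, 55.6 and 67.3 FPKM in mutants. As for Hyou1, mutants 1 and 3 were above all controls and mutant 2 was not. The log2 fold change was 0.18 (SE 0.09, unadjusted p = 0.0993, limma adjusted p = 0.786).

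Dnajb11, an Hsp40 partner of BiP, was at 95.6, 94.7 and 94.9 FPKM in controls, against 108, 95.7 and 109 FPKM in mutants. The groups did not overlap, though mutant 2 exceeded the highest control by less than 1 FPKM. The log2 fold change was 0.13 (SE 0.07, unadjusted p = 0.127, limma adjusted p = 0.786). Creld2, an ER stress-inducible protein of the lumen, was at 52.5, 52.1 and 62.0 FPKM in controls, against 64.0, 54.8 and 83.6 FPKM in mutants. Mutant 3 stood highest and mutant 2 lay among the controls. Manf, a stress-inducible ER protein that can be secreted, was at 61.5, 63.4 and 75.4 FPKM in controls, against 82.6, 61.8 and 89.8 FPKM in mutants, with the same order among mutants. The log2 fold changes of Creld2 and Manf were 0.26 (SE 0.16) and 0.21 (SE 0.15).

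The remaining chaperones differed little between groups. Canx, the lectin chaperone calnexin, was at 118, 112 and 128 FPKM in controls, against 130, 108 and 127 FPKM in mutants. Dnajc3, an Hsp40 co-chaperone also called p58IPK, was at 46.3, 44.1 and 46.0 FPKM in controls, against 46.6, 43.0 and 45.6 FPKM in mutants. Its highest library was 1.08 times its lowest, the least variation of any member. Dnajb9, the Hsp40 ERdj4, was at 50.6, 60.0 and 59.4 FPKM in controls, against 47.1, 51.9 and 62.0 FPKM in mutants. A copy of the Dnajb9 transcript with 94.6% identity exists elsewhere in mm9, so its values are uncertain. The log2 fold changes of Canx, Dnajc3 and Dnajb9 were 0.03, -0.01 and -0.08.

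**Figure D2:**
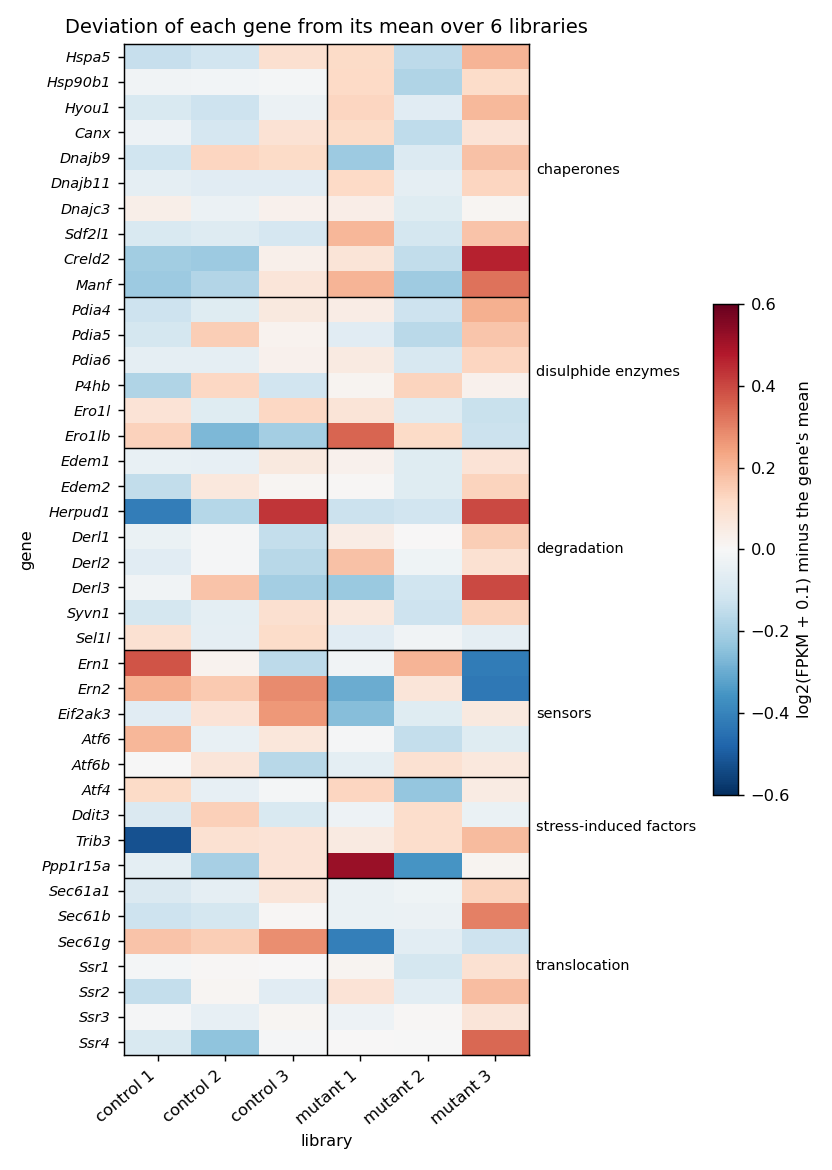
Heat map of the 40 genes in each of the 6 libraries. Colour gives each gene's log2 deviation from its own mean over the 6 libraries, so absolute levels are not shown. By FPKM, P4hb was the highest gene in every library and Ern2 and Trib3 were near the lower end. For 26 of the 40 genes the highest library was less than 1.3 times the lowest.

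Disulphide enzymes included the most abundant member, P4hb, a protein disulphide isomerase that is also the small subunit of the microsomal triglyceride transfer protein used in fat absorption. P4hb was at 1047, 1290 and 1092 FPKM in controls, against 1198, 1298 and 1207 FPKM in mutants. The highest values were in control 2 and mutant 2, which also had the highest summed enterocyte markers (24058 and 24739 FPKM, beside 14537 to 20225 FPKM in the other 4). Among single enterocyte markers, Fabp1, Fabp2, Apoa4, Alpi, Lct and Vil1 were also highest in control 2 and mutant 2. Cdh17 was highest in control 1, Pdx1 in mutant 1 and Cdx2 in mutant 3. The part of enterocyte content in the P4hb values was not tested. Pdia6, another disulphide isomerase, was at 130.2, 130.1 and 138 FPKM in controls, against 140.2, 126 and 148 FPKM in mutants. Pdia4 was at 70.1, 72.7 and 79.5 FPKM in controls, against 78.8, 70.2 and 88.6 FPKM in mutants. Both isomerases were highest in mutant 3, as were Hspa5 and Manf.

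Pdia5, a less abundant isomerase, was at 11.6, 13.9 and 12.7 FPKM in controls, against 11.9, 11.2 and 14.1 FPKM in mutants. Ero1l and Ero1lb encode the oxidases that recharge the isomerases. Ero1l was at 24.2, 21.7 and 24.9 FPKM in controls, against 24.1, 21.7 and 20.8 FPKM in mutants. Ero1lb was at 12.5, 9.35 and 9.81 FPKM in controls, against 14.4, 12.2 and 10.3 FPKM in mutants, and was highest in the number 1 library of each group. Both oxidases have near-identical copies elsewhere in mm9 (99.6% and 97.0% identity), so their values are uncertain. The class ran from a log2 fold change of -0.09 for Ero1l to 0.22 for Ero1lb, with a median of 0.07.

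In the degradation class, Herpud1 encodes a membrane protein of the ubiquitin ligase complex and lies at chr8:96910400-96919258 in mm9. It was at 68.5, 81.1 and 123 FPKM in controls, against 83.6, 84.3 and 120.3 FPKM in mutants. Control 3 and mutant 3 stood well above the other 4 libraries, and the groups overlapped. Derl1 and Derl2 encode derlins, membrane proteins of the export route to the cytosol. Derl1 was at 54.9, 56.2 and 51.2 FPKM in controls, against 58.3, 56.6 and 62.6 FPKM in mutants, with no overlap, a log2 fold change of 0.13 (SE 0.07) and an unadjusted p of 0.118 by limma. A copy with 96.0% identity exists elsewhere in mm9, so Derl1 is uncertain too. Derl2 was at 17.8, 18.5 and 16.6 FPKM in controls, against 21.1, 18.3 and 19.9 FPKM in mutants, with mutant 2 inside the control range and a log2 fold change of 0.16 (SE 0.08, limma unadjusted p = 0.0945).

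Syvn1, the ubiquitin ligase HRD1, was at 21.5, 22.2 and 24.7 FPKM in controls, against 24.1, 21.2 and 25.4 FPKM in mutants. Its locus overlaps Mrpl49, and reads of the overlap may be split between them. The other 4, the mannosidase-like Edem1 and Edem2, the HRD1 partner Sel1l and the derlin Derl3, had log2 fold changes from -0.10 to 0.05 with overlapping groups. Over the 6 libraries Edem1 ranged from 39.99 to 44.5 FPKM, Edem2 from 34.0 to 41.4 FPKM and Sel1l from 33.5 to 37.8 FPKM. Derl3, abundant in plasma cells and acinar cells, ranged from 10.4 to 16.0 FPKM over the 6 libraries.

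Sensors were low in level and were, in this fit, the only class with a negative median log2 fold change, -0.16, with 1 of 5 positive; the difference between classes was not tested. Ern2 encodes IRE1beta, the form of IRE1 restricted to mucosal epithelium and enriched in goblet cells, and lies at chr7:129313407-129329730 in mm9. It was at 4.70, 4.54 and 4.96 FPKM in controls, against 3.28, 4.26 and 2.98 FPKM in mutants. All 3 mutants were below all controls, mutants 1 and 3 by more than mutant 2. The means were 4.73 ± 0.215 and 3.51 ± 0.670 FPKM (SD, n = 3 each), with a log2 fold change of -0.44 (SE 0.15, 95% interval -0.78 to -0.09, limma unadjusted p = 0.021, adjusted p = 0.786). The summed goblet markers were 6440 to 8598 FPKM in controls and 6794 to 9066 FPKM in mutants, with 6 of 7 markers measured. The goblet sums of the groups thus overlapped, but single markers differed. Mutant means were below control means for Fcgbp, Agr2 and Clca3 and above them for Zg16, Tff3 and Spdef, each with overlapping groups. Fcgbp was at 360, 331 and 389 FPKM in controls, against 299, 375 and 302 FPKM in mutants. The part of goblet content in the Ern2 values was not tested. In the leave-one-out fits the log2 fold change of Ern2 ran from -0.58 without mutant 2 to -0.33. In the male libraries alone it was -0.30 (limma unadjusted p = 0.14).

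Ern1, the widely expressed IRE1alpha, was at 9.34, 7.26 and 6.41 FPKM in controls, against 7.05, 8.26 and 5.33 FPKM in mutants, lowest in number 3 of each group. Eif2ak3, the kinase PERK that restrains translation, was at 8.21, 9.10 and 10.3 FPKM in controls, against 7.19, 8.17 and 8.96 FPKM in mutants. Within both groups its lowest value was in number 1 and its highest in number 3. Atf6 was at 10.2, 8.63 and 9.36 FPKM in controls, against 8.87, 8.06 and 8.48 FPKM in mutants. Atf6b, its relative, was at 19.6, 20.6 and 17.5 FPKM in controls, against 18.8, 20.9 and 20.5 FPKM in mutants. The groups overlapped for all 4, with log2 fold changes from -0.18 for Eif2ak3 to 0.06 for Atf6b.

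Stress-induced factors were led by Atf4, the transcription factor made when PERK or a related kinase is active. Atf4 was at 125, 111 and 114 FPKM in controls, against 126, 98.2 and 119 FPKM in mutants, and its log2 fold change was -0.04 (95% interval -0.29 to 0.22). ATF4 is regulated largely through translation, which these transcript levels do not measure. Ddit3, the pro-apoptotic factor CHOP, was at 18.1, 21.2 and 18.0 FPKM in controls, against 18.8, 20.7 and 18.7 FPKM in mutants. Its values were higher in number 2 of each group, and its log2 fold change was 0.02 (95% interval -0.19 to 0.24). The Ddit3 locus overlaps that of Mars, whose mean was 17.4 FPKM, and reads of the overlap may be split.

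Trib3, a pseudokinase induced by CHOP and ATF4, was at 3.28, 5.06 and 5.04 FPKM in controls, against 4.93, 5.12 and 5.43 FPKM in mutants. Control 1 stood below the other 5 libraries. Ppp1r15a encodes GADD34, which reverses the translation block, and was at 6.79, 6.13 and 7.48 FPKM in controls, against 10.2, 5.50 and 7.15 FPKM in mutants. Mutant 1 was the high library, 1.85 times mutant 2. The log2 fold changes were 0.23 (SE 0.18) for Trib3 and 0.12 (SE 0.22) for Ppp1r15a.

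Translocation subunits held the smallest p of the list. Sec61g encodes the gamma subunit of the Sec61 channel and lies at chr11:16401641-16408487 in mm9. It was at 13.4, 13.1 and 14.4 FPKM in controls, against 8.90, 11.3 and 10.9 FPKM in mutants, so that every mutant lay below every control. The means were 13.6 ± 0.680 and 10.4 ± 1.29 FPKM (SD, n = 3 each), with a log2 fold change of -0.40 (SE 0.11, 95% interval -0.66 to -0.14, limma unadjusted p = 0.0081, adjusted p = 0.786). Its partners in the channel went the other way in value: Sec61b had a log2 fold change of 0.15 (SE 0.11) and Sec61a1 of 0.05 (SE 0.08). Sec61b has 3 near-identical copies elsewhere in mm9 and Sec61g has 7 shorter matches, so that reads of both may be shared and their values are uncertain. Over the 6 libraries Sec61a1 ranged from 103 to 120 FPKM and Sec61b from 120.2 to 162 FPKM.

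The Sec61g value rests on the fewest reads, at least 80 implied in a library. Its signal was also divided among 3 RefSeq transcripts, of which NM_001109971 took 37.7% to 53.8% and NM_011343 22.9% to 54.5% of the gene's FPKM. For comparison, NM_001163434 took at least 87.5% of Hspa5 in every library.

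Ssr2 and Ssr4, subunits of the translocon-associated complex that assists entry of some secretory proteins, were the most abundant of the class. Ssr2 was at 165, 184 and 174 FPKM in controls, against 193, 175 and 207 FPKM in mutants. Ssr4 was at 164, 148 and 174 FPKM in controls, against 175, 174 and 222 FPKM in mutants. The Ssr4 groups did not overlap, by a margin of under 1 FPKM, and its log2 fold change was 0.23 (SE 0.12, limma unadjusted p = 0.0997). It was 0.11 without mutant 3, and with the replicate block the limma unadjusted p was 0.028. Ssr1 and Ssr3, at 21.1 to 24.2 FPKM and 129 to 141 FPKM over the libraries, had log2 fold changes of 0.00 and 0.03. The Ssr1 transcript has 1857 shorter matches elsewhere in mm9, so its value is uncertain as well.

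A single library weighed on these values. Mutant 2 was the lowest of the 6 for 13 members, and mutant 3 was the highest for 21. Without mutant 2, 8 members reached an unadjusted p under 0.05 in place of 2, with an adjusted p of 0.657 for each (limma), against 7.48% of all rows. The 6 with higher values were Sdf2l1 (log2 fold change 0.27), Hyou1 (0.25), Manf (0.37), Creld2 (0.40), Dnajb11 (0.19) and Derl2 (0.22), of which 5 are chaperones. The 2 with lower values were Ern2 (-0.58) and Sec61g (-0.47), each at its lowest value under any setting. Sec61g was at -0.29 without mutant 1. Without control 3, mutant 1 or mutant 3 the count was 1 in each case, against 5.33%, 4.01% and 3.89% of all rows.

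Chaperones and stress-induced factors were then set side by side in each library, as the median over a class of each gene's log2 deviation from its mean over the 6 libraries. The chaperone median was -0.09, -0.09 and 0.03 in controls 1, 2 and 3 and 0.12, -0.12 and 0.17 in mutants 1, 2 and 3. The stress-induced median was -0.07, 0.02 and 0.04 in controls and 0.09, -0.06 and 0.03 in mutants. Both were above 0 in control 3, mutant 1 and mutant 3. Sensors ran differently, at 0.20, 0.07 and 0.07 in controls and -0.06, 0.07 and -0.07 in mutants. Over all rows the medians were 0.06, 0.04 and -0.02 in controls and -0.02, 0.00 and -0.05 in mutants.

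The 11 genes with an ERSE or ERSE-II match had medians of 0.08 in mutant 1 and -0.12 in mutant 2, and the 22 with a promoter but no match had 0.00 and -0.07. Across all libraries the median log2 fold change between groups was 0.06 for the 11 and 0.03 for the 22. Plasma cell markers, another secretory source, summed to 1103 to 1483 FPKM in controls and 1227 to 1625 FPKM in mutants, with 6 of 8 measured. Paneth markers summed to 4619 to 6973 FPKM in controls and 4408 to 5752 FPKM in mutants. Brunner gland and stomach markers, with Muc5ac listed at 0 in every library and Gkn1 in all but mutant 2, summed to 21.9 to 529 FPKM in controls and 75.0 to 178 FPKM in mutants. The summed smooth muscle markers did not overlap between the groups, at 511 to 720 FPKM in controls and 366 to 488 FPKM in mutants. Among single markers Des overlapped, with control 1 at 98.5 FPKM and mutant 3 at 103.6 FPKM. Mutants lay below controls for Myh11, Acta2, Actg2 and Cnn1, as for 9.92% of all rows. The part of these cells in the class medians was not tested.

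**Figure D3:**
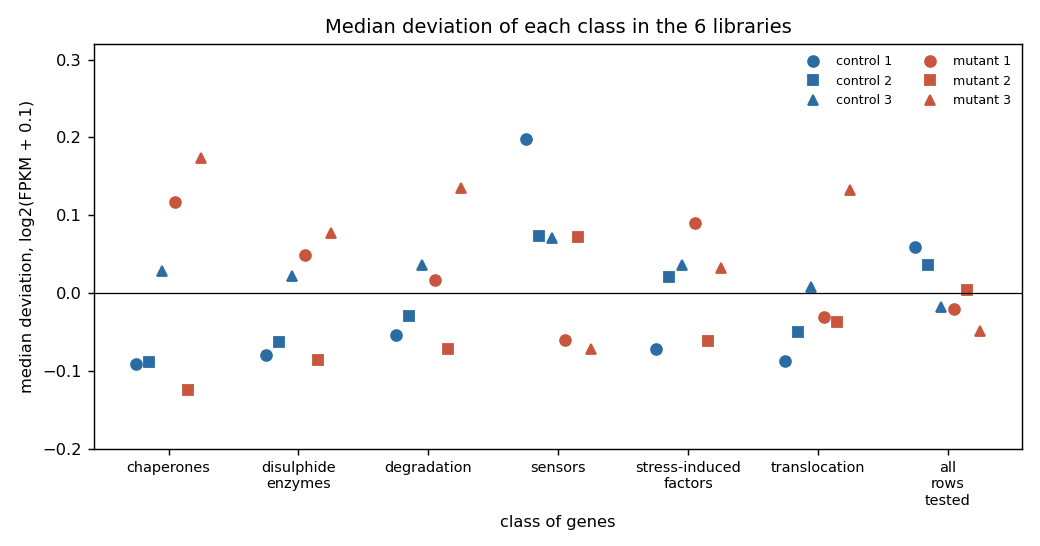
Median log2 deviation from each gene's own mean over the 6 libraries, by class and library, beside the median over all rows tested. Chaperones lie highest in mutant 3 (0.17) and lowest in mutant 2 (-0.12), while sensors are highest in control 1 (0.20).

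The relation to acinar content was taken as the log2 slope of a gene per doubling of Ctrb1, with group in the model. No member passed an adjusted p of 0.05 (limma), against 0.151% of all rows, and the smallest member value was 0.34. At an unadjusted p under 0.05, 3 of the 40 passed, Herpud1, Trib3 and Ern1, against 9.46% of all rows (501 with positive and 1000 with negative slopes). Trimmed mean scaling gave 709 positive and 598 negative, quantile normalization 675 and 708, and rescaling without the acinar list 320 and 1909. Slopes were positive for 30 of 40 members and for 36.5% of all rows, with medians of 0.013 and -0.0098. That majority was lost under some settings. After rescaling without the acinar list 15 of 40 members had positive slopes (median -0.0024), and with sex as a covariate 16 of 40 did (median -0.0048), beside 22.8% and 42.9% of all rows. In the male libraries alone 23 of 40 were positive, and with the replicate block 24 of 40, beside 46.3% and 42.2% of all rows. Each of these fits left 1 residual degree of freedom (libraries beyond the fitted terms), beside 3 in the main slope fit. Without mutant 2 or without mutant 3 there were 28 positive (37.0% and 36.8% of all rows), with medians of 0.0069 and 0.0082. Without control 1 or without control 3 there were 31 (40.1% and 43.3% of all rows), with medians of 0.020 and 0.019. In the fit with group alone, all 10 chaperones and all 7 translocation subunits had positive slopes, none below an unadjusted p of 0.05. Positive slopes numbered 5 of 10 chaperones and 3 of 7 translocation subunits after rescaling without the acinar list, and 3 of 10 and 2 of 7 with sex as a covariate. With the replicate block they numbered 8 of 10 and 1 of 7.

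**Figure D4:**
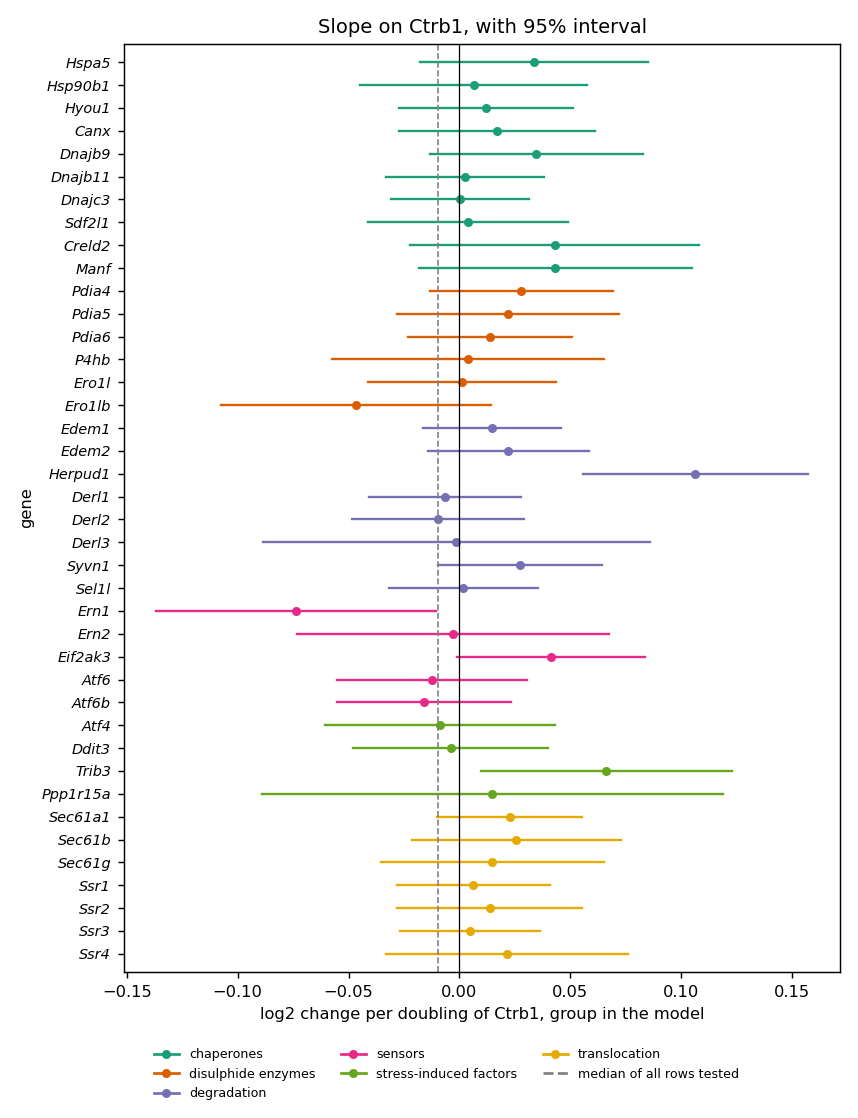
Log2 change per doubling of Ctrb1 for each of the 40 genes with 95% intervals, from a limma fit with group as a covariate over 6 libraries. The intervals of Herpud1 and Trib3 lie above 0, that of Ern1 lies below 0, and the other 37 include 0.

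Herpud1, whose promoter holds the ERSE-II and ATF4-type letters, had the steepest positive slope, 0.11 per doubling (SE 0.021, 95% interval 0.056 to 0.157, limma unadjusted p = 0.0021, adjusted p = 0.34), or 7.65% more FPKM per doubling of Ctrb1. Its 2 high libraries, control 3 at 123 FPKM and mutant 3 at 120.3 FPKM, were the pair with the highest Ctrb1 and with Xist. In the 4 male libraries alone the slope was 0.057 (limma unadjusted p = 0.12), and with sex as a covariate it was 0.052 (limma unadjusted p = 0.047). With the replicate block it was 0.048. On the linear scale of Ctrb1 the slope was 0.28 log2 units per 1000 FPKM with a limma adjusted p of 0.098, and 9 members were then below an unadjusted p of 0.05, against 14.2% of all rows.

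Trib3 had a slope of 0.066 (limma unadjusted p = 0.029, adjusted p = 0.49), which was 0.0099 without control 1, the library with the lowest Trib3 and the lowest Ctrb1. It was 0.12 without control 3. Without control 1, 1 member in place of 3 was below an unadjusted p of 0.05, against 11% of all rows. Ern1 had the steepest negative slope, -0.074 (limma unadjusted p = 0.029). It was -0.13 without control 3, but with sex as a covariate it was -0.034 (limma unadjusted p = 0.43) and with the replicate block also -0.034 (limma unadjusted p = 0.48). Eif2ak3 followed at 0.041 (unadjusted p = 0.056), Ero1lb at -0.047 (0.11), Syvn1 at 0.027 (0.12), Dnajb9 at 0.035 (0.13) and Manf at 0.043 (0.14), all by limma with 95% intervals that include 0. The slopes of Ero1lb and Dnajb9 took the opposite sign with the replicate block, and that of Eif2ak3 was 3.1e-04. With sex as a covariate the slope of Manf was 0.0025. Without control 3 the slopes of Ero1lb and Dnajb9 were -0.11 and 0.081, and without control 1 those of Ero1lb, Syvn1 and Manf were -0.024, 0.044 and 0.078. Hspa5 had a slope of 0.033 with an interval from -0.018 to 0.085. Over the 6 libraries Ctrb1 had a 656-fold range and Hspa5 a 1.29-fold range. Both were highest in mutant 3, but Ctrb1 was lowest in control 1 and Hspa5 in mutant 2.

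**Figure D5:**
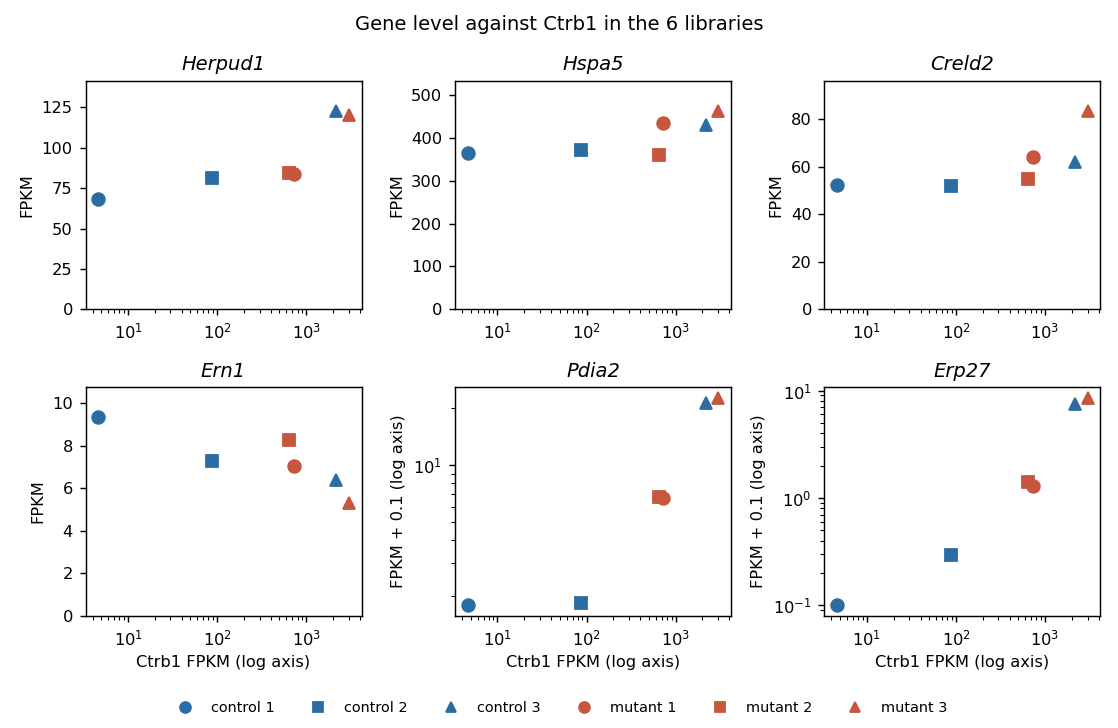
FPKM of selected ER genes against Ctrb1 FPKM in the 6 libraries, with controls and mutants marked. The Ctrb1 axis is logarithmic. The gene's own axis is logarithmic with 0.1 added for Pdia2 and Erp27, and linear from 0 for Herpud1, Hspa5, Creld2 and Ern1. Pdia2 and Erp27 were highest in control 3 and mutant 3, and Herpud1 shows the same pair at the top over a narrower range.

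A further 85 genes of ER folding, translocation, glycosylation and stress were examined around the members, of which 82 had 1 tested row. Between mutants and controls none passed the adjusted threshold, none was higher at an unadjusted p under 0.05 and 1 was lower (limma). Of all rows, 5.81% reached that unadjusted level. The lower gene was Edem3, a mannosidase of the degradation pathway, at 18.6, 17.8 and 18.3 FPKM in controls, against 16.4, 16.1 and 15.3 FPKM in mutants. Its log2 fold change was -0.19. The median over the 82 was 0.01, with 47 positive. The next smallest p values belonged to the peptidyl-prolyl isomerase Fkbp14 (-0.48), Selk (0.17), Wfs1 (0.19), Srp14 (0.16) and Srp9 (-0.24), the last pair being partner subunits of the signal recognition particle.

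On Ctrb1, 4 of the 82 had positive and 4 had negative slopes at an unadjusted p under 0.05, where 9.46% of all rows reached that level. None of the 82 passed the adjusted threshold (limma), against 0.151% of all rows. The steepest was Erp27, an ER protein that binds isomerases and is abundant in pancreas, at 0.00, 0.19 and 7.47 FPKM in controls, against 1.205, 1.305 and 8.45 FPKM in mutants. Its slope was 0.75 with a limma adjusted p of 0.11. Pdia2, the pancreatic disulphide isomerase, was at 1.69, 1.75 and 21.2 FPKM in controls, against 6.597, 6.645 and 22.7 FPKM in mutants, with a slope of 0.44 (limma adjusted p = 0.38). Fkbp11, a secretory tissue isomerase, was at 8.77, 11.1 and 17.4 FPKM in controls, against 11.2, 12.3 and 20.2 FPKM in mutants, with a slope of 0.13 (limma adjusted p = 0.41). In the fit with group alone these 3 had steeper slopes than any of the 40 members, whose steepest slope was 0.11. The difference was not tested, and the order changed with the setting. With sex as a covariate Erp27, Pdia2 and Fkbp11 were at 0.47, 0.18 and 0.047, beside Herpud1 at 0.052 and Trib3 at 0.099. With the replicate block they were at 0.50, 0.23 and 0.023, beside 0.048 and 0.076. In the male libraries alone they were at 0.36, 0.012 and 0.078, beside 0.057 and 0.14. Of the genes named by smallest p, the transcription factors Creb3l1 (-0.068) and Creb3 (-0.040) and Os9 (-0.055), a lectin of the degradation pathway, had negative slopes. Their limma adjusted p values were 0.44, 0.49 and 0.49. With sex as a covariate Creb3l1, Creb3 and Os9 were at -0.052, -0.060 and -0.013. Creb3 was at -0.0098 with no group term, and Os9 was at 0.013 in the male libraries alone.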

How the data were processed

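The data are RNA-seq of duodenum from 3 control and 3 mutant mice, grouped by the genotype labels. The authors' tools were CASAVA 1.8.2, TopHat, Cufflinks and DESeq on build mm9, as listed in the submitters' processing notes. Gene and transcript tables hold FPKM with intervals, per the file headers. A further table, deposited by the authors, holds group means of counts divided by size factors (a signal), their ratio, its log2 value and p-values. Transcript coverage, also in the deposited tables, was not used in any test.

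Members and gene lists were chosen with earlier results of these data known. FPKM was tested as log2(FPKM + 0.1) with limma 3.58.1 in R 4.3.3 (trended prior variance) for 15864 rows with a mean of at least 0.1 FPKM, two-sided, with Benjamini-Hochberg adjustment over all rows and a threshold of 0.05. Fold changes on this scale understate those of low genes. A second fit added log2(Ctrb1 FPKM + 0.1) to the group term. The fits were tested on simulated data with planted changes larger than any member's. That test does not cover changes of the members' size. Reads were implied from the deposited intervals as the squared ratio of FPKM to its standard error; they cover counting error only. Near-identical copies were sought in mm9 at 90% identity or more. Library values were printed for every chaperone, disulphide enzyme, sensor and stress-induced factor, and for the 2 highest genes or the 8 smallest p in either fit among the rest. Full statistics were given for the 8 smallest p per fit, and up to 6 other pathway genes per fit were named by smallest p. Alternatives numbered 19 for the group comparison and 21 for the slope. Those with the male libraries alone, and with sex beside the slope, were added after the data were seen.

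The labels number the mice 1 to 3 in each group without stating a litter or batch. Deviations from the group means were correlated across genes over 15864 rows. Same-numbered libraries gave r = 0.106, 0.207 and 0.389, and the numbers were treated as pairs in the alternative with a replicate block. Control 1 with mutant 2, which differ in number, gave r = 0.127, above pair 1. The remaining libraries of unlike number gave r from -0.275 to 0.061. The highest r was for control 3 and mutant 3, the libraries with Xist and the most Ctrb1. What links same-numbered libraries was not tested. Each library is 1 mouse, per the labels, and p-values measure the spread between these mice.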

Additional observations from a re-analysis of the deposited data

How the results depend on the processing

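No member passed an adjusted p of 0.05 under any of the 19 alternatives for the group comparison or the 21 for the slope, leave-one-out fits included, where the count was 0 throughout. With the replicate block, which uses the pairing of the numbers, the count of members was 0 in both fits. Over all rows the block moved the adjusted calls from 0 to 2 for the group comparison and from 24 to 145 for the slope. The block left 2 residual degrees of freedom in place of 4 for the group comparison, and 1 in place of 3 for the slope. The slope in the male libraries alone also left 1. Values from these fits are therefore less certain than those of the main fits. Members at an unadjusted p under 0.05 numbered 1 to 8 in place of 2 for the group comparison and 1 to 9 in place of 3 for the slope. The share of all rows at that level ran from 3.65% to 7.89% for the group comparison and from 3.20% to 14.2% for the slope. The sign turned for 3 named slopes: Ero1lb was at 0.013 and Dnajb9 at -0.018 with the replicate block, and Os9 was at 0.013 in the male libraries alone. The cause was not tested. Erp27 passed the adjusted threshold with a pseudocount of 0.01 (slope 1.09, limma adjusted p = 1.6e-04), without control 1 (adjusted p = 0.0068), without control 2 (0.046), with the replicate block (0.019), with no group term (0.028) and with the acinar mean in place of Ctrb1 (0.046). Pdia2 did so without control 1 (slope 0.77, limma adjusted p = 0.0026). Depth limits Sec61g most, with as few as 80 implied reads. With 3 mice a group, the 95% interval of Hspa5 spans -0.19 to 0.40 on the log2 scale.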

Other observations

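Other genes of ER folding and stress, chosen for their role after their values were seen, had groups that overlapped. Calr, the soluble lectin chaperone calreticulin, was at 563, 579 and 535 FPKM in controls 1, 2 and 3 and at 615, 539 and 541 FPKM in mutants 1, 2 and 3. Pdia3, the isomerase that works with calreticulin and calnexin, was at 337, 342 and 325 FPKM in controls, against 356, 311 and 338 FPKM in mutants. Both had their highest value in mutant 1, and the groups overlapped. Xbp1, the transcription factor activated by IRE1, was at 193, 187 and 203 FPKM in controls, against 223, 184 and 238 FPKM in mutants. As for Hspa5, Manf and Creld2, mutants 1 and 3 exceeded all controls in Xbp1 and mutant 2 did not. Total Xbp1 does not show how much of it was spliced to the active form.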
